A study of Mus musculus with 17 samples.

Results

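The genes described here were 10 genes of the antioxidant defence, Slc7a11, Gclc, Gclm, Txnrd1, Srxn1, Gpx2, Hmox1, Nqo1, Sod2 and Sod3. They were taken by symbol from a raw count table of 45777 genes, in which all 10 were found. RNA had been sequenced from the lungs of male wild-type C57BL/6 mice that were irradiated through the left lung with a single dose of 65 Gy or 75 Gy, or not irradiated, and sampled 2 or 6 weeks later. The mice arrived at 6 weeks of age and were acclimatised for 1 week. Each of the 6 groups held 3 libraries, apart from 65 Gy at 6 weeks with 2, so 17 libraries were analysed. Irradiated mice received a narrow image-guided beam, and the study took RNA from the lesions, so irradiation and the place of sampling cannot be told apart.

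NRF2, the product of Nfe2l2, is a transcription factor that is held in the cytoplasm and degraded with the help of KEAP1. Oxidants and electrophiles modify KEAP1, after which NRF2 accumulates, pairs with small MAF proteins and binds antioxidant response elements, while BACH1 competes for the same elements. Its targets make glutathione, reduce peroxides and quinones and break down haem, whereas the superoxide dismutases, which turn superoxide into hydrogen peroxide, are only in part under its control.

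The 10 genes did not move as a block. Slc7a11, the cystine importer, and Hmox1, the haem-degrading enzyme, rose in every comparison of irradiated with control lungs, by 3.45-fold to 8.99-fold and by 2.33-fold to 4.46-fold. Srxn1 and Gclc also rose in all 4 comparisons, by less than 2-fold. Txnrd1 and Sod2 rose in 3 of the 4, Gclm and Gpx2 in 1 each, and Nqo1 and Sod3 in 0. No test passed for a difference between the doses. The 75 Gy library with the highest Hmox1 and Slc7a11 of all had the lowest Nqo1 and Gpx2 of all.

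A gene was said to have risen or fallen where edgeR's quasi-likelihood test gave a p of at most 0.05 after Benjamini-Hochberg adjustment over all 22052 genes tested. A differentially expressed gene (DEG) had, in addition, a log2 fold change of 1 or more in either direction. Levels are CPM, counts scaled to library size, after TMM scaling. All 10 genes passed the filter on low counts in every comparison, with 107 counts in the lowest library of the weakest of them, Slc7a11, and 28651 in the highest of Gclc. At 75 Gy and 2 weeks 7 of the 10 rose, where 11.8% of all genes rose, and 2 were DEGs, where 5.67% of all genes were DEGs that rose. At 65 Gy and 2 weeks 6 rose, against 6.70% of all genes, and 2 were DEGs, against 3.47%. At 6 weeks 6 rose with 75 Gy, against 18.0% of all genes, and 5 with 65 Gy, against 7.66%. Again 2 were DEGs at each dose, against 7.28% and 4.34%. With edgeR 0 of the 10 fell in these comparisons, in which 10.5%, 4.29%, 18.0% and 7.01% of all genes fell in the same order. Sod3 was lower with each dose at 2 weeks at an unadjusted p under 0.05, and DESeq2 passed it with 75 Gy. The median log2 fold change of the 10 was 0.495, 0.409, 0.518 and 0.661 in that order, and the median over all genes lay between -0.00849 and 0.0399. Both doses were compared with the same controls at each time, so the 4 comparisons do not stand apart from each other.

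**Figure D1:**
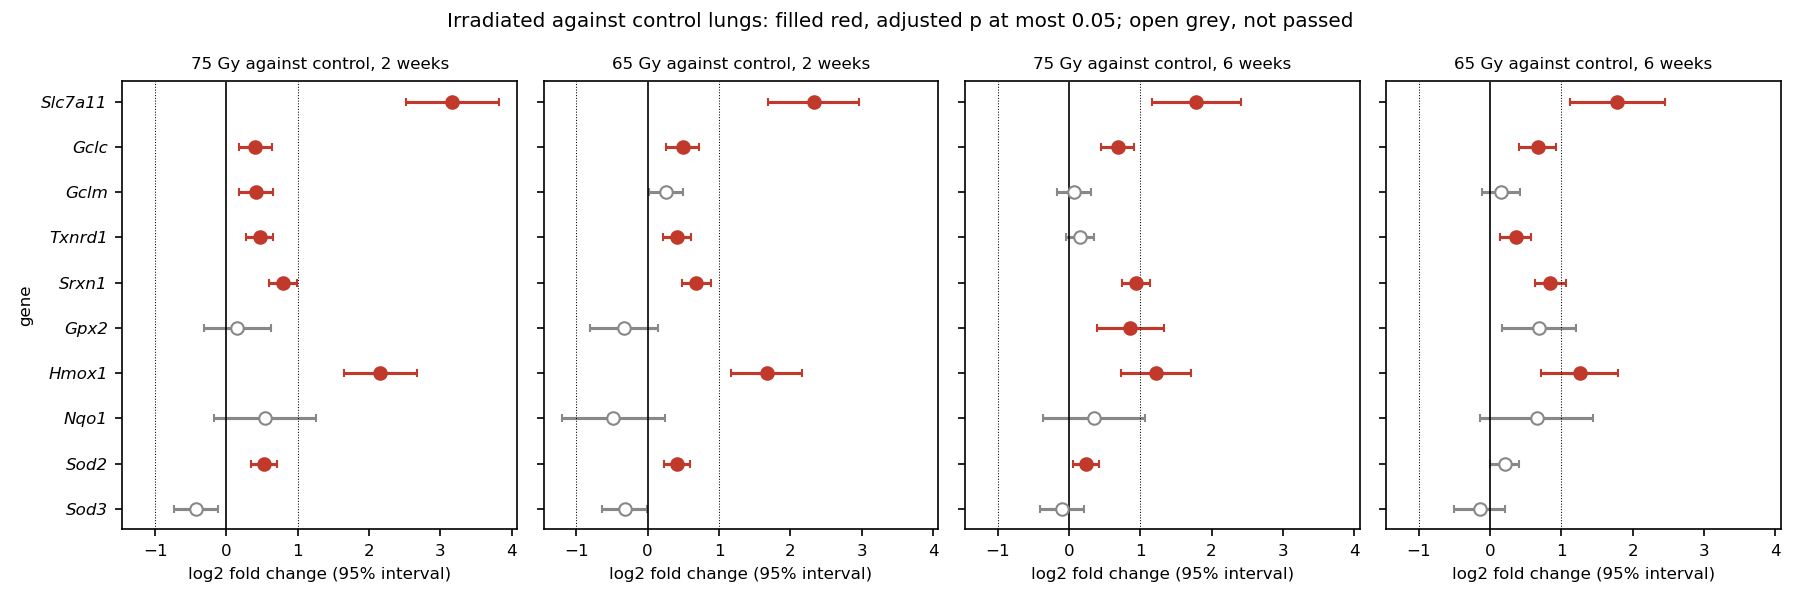
Log2 fold change (x axis) of the 10 genes (y axis) in irradiated against control lungs, 1 panel per comparison, with points for the estimate and bars for its 95% interval. Filled red points passed the test and open grey points did not; dotted lines mark a log2 fold change of 1 in either direction, beyond which lay Slc7a11 and Hmox1 among the points that passed.

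In each of 2 groups, 1 library stood apart from the rest. The 75 Gy library 3134 of 2 weeks had a summed level of 8 monocyte and recruited macrophage markers (Ccr2, C1qa and others) of 2362 CPM, against 923 and 1199 CPM in the rest of its group. Its airway secretory markers (Scgb1a1, Cyp2f2 and others, 6 genes) summed to 6512 CPM against 13660 and 12402 CPM, and its capillary markers (Gpihbp1, Plvap and others, 7 genes) to 777 CPM against 2111 and 1695 CPM. Without this library 7 of the 10 genes still rose at 75 Gy and 2 weeks, with Nqo1 in and Gclm out. The control library 3126 of 2 weeks differed from 3127 and 3128 by a chi-square of the counts of 109.7 and 116 per gene, while these differed from each other by 27.6, and the 75 Gy libraries of 2 weeks by 99.6 to 239.6. Its alveolar macrophage markers (Siglecf, Marco and others, 7 genes) summed to 1172 CPM against 472 and 535 CPM, and its lipid-laden macrophage markers (Gpnmb, Trem2 and others, 6 genes) to 3130 CPM against 1629 and 1863 CPM. Trem2 itself was at 2.76 CPM in library 3126, against 1.88 and 2.78 CPM in 3127 and 3128, so other genes of the list carried this difference. Library 3126 was the lowest control of 2 weeks in Slc7a11, Gclm and Txnrd1 and the highest in Gclc, Srxn1, Gpx2 and Sod2. Without it 7 of the 10 genes rose at 75 Gy and 2 weeks, as with it, while the number passing among all genes went from 4922 to 6173. The alveolar type 2 markers (Sftpc, Lamp3 and others, 8 genes) summed to 18766 to 34372 CPM over all libraries, as a check of the tissue. Total counts lay between 46764569 and 66797879 per library. Nothing in the labels says how libraries of a group are related beyond their separate numbers, and the p-values measure the spread between them.

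The promoters were searched for the letters that NRF2 and its relatives bind. RefSeq starts on GRCm38.p6 were at hand for 7 of the 10 genes, with 9 windows of 250 bases before a start, while Gclc, Hmox1 and Sod3 had no window in the table. The core of the antioxidant response element, TGACNNNGC, was in 2 of the 9 windows, of Gclm and of the second start of Txnrd1, and in 10.2% of 32851 windows of all genes, counting both strands. The related AP-1 element, TGANTCA, occurred at 2 places before Srxn1 and in 6.75% of all windows. The place nearer to the start was followed by GC, and this longer form, TGANTCAGC, which was added after the windows were seen and lies within the AP-1 matches, was in 1.02% of all windows. Before Srxn1 this form reads TGAGTCAGC, which differs from the core searched, TGACNNNGC, only by a G in place of the C after TGA. The search for the core could therefore not count it. A match is a run of letters and not a shown binding site. Of the 4 genes that rose in every comparison, Srxn1 had a match, Slc7a11 had 0 and Gclc and Hmox1 had no window. The Slc7a11 window also holds a run that differs from the core only by a G in place of the C after TGA. It lacks the AP-1 letters, so neither the core nor the longer form could count it. For such runs the contrast between Srxn1 and Slc7a11 depends on the letters chosen. How often they occur in all windows was not searched. The search thus says little about why these 4 rose, and letters further than 250 bases before a start were not searched. The sequences are given because they are the only member windows with a match, on the plus strand, cut where an annotated exon or gene start lies, with the matches in capitals.
Gclm, chr3:122245307-122245486: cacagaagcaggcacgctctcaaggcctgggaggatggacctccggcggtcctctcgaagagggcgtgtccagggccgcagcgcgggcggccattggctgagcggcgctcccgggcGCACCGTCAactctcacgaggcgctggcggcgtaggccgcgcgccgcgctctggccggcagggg
Txnrd1, second start, chr10:82859009-82859178: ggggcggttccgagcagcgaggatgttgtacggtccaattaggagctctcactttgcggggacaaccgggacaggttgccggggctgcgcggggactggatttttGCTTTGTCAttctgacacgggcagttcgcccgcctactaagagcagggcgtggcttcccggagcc
Srxn1, chr2:152105274-152105515: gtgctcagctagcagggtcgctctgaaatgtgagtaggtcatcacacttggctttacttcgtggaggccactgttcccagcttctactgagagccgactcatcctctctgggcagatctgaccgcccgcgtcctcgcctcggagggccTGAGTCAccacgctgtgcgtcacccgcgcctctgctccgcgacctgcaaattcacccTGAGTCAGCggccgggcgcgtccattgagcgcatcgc
In Gclm and Txnrd1 the core reads TGACGGTGC and TGACAAAGC on the opposite strand, 134 and 92 bases before the start, and in Srxn1 the element reads TGAGTCA 102 and 45 bases before it. The start meant is the one that ends each uncut window. For Gclm that window ended at chr3:122245556, past the gene start at chr3:122245487, so its match lies nearer to the gene start than to the start meant.

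**Figure D2:**
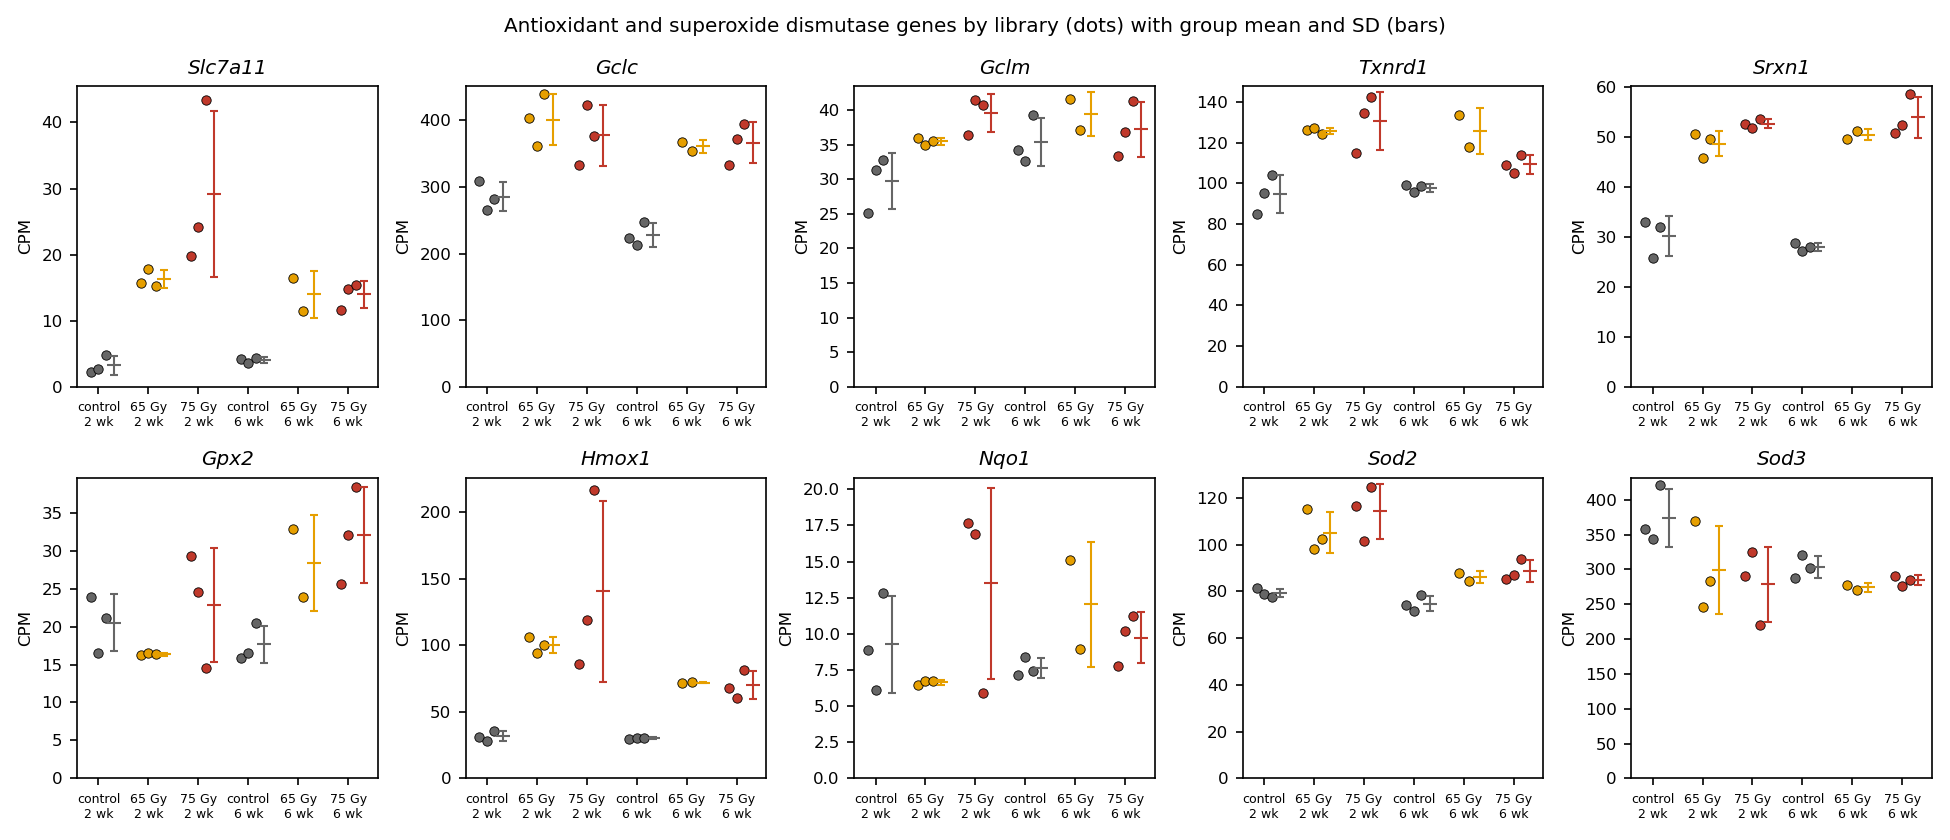
Level in CPM (y axis, from 0) of each of the 10 genes, 1 panel per gene, in the 6 groups of dose and time (x axis), with a dot per library and a bar for the group mean and SD. Slc7a11 and Hmox1 in every irradiated library lay above every control library, whereas Nqo1 and Gpx2 were split within the 75 Gy group of 2 weeks.

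Among the genes of glutathione synthesis, Slc7a11 (gene 26570, chr3:50364936-50499087) encodes the light chain of the antiporter that imports cystine in exchange for glutamate. Control libraries had 2.17, 2.72 and 4.81 CPM at 2 weeks and 4.17, 3.62 and 4.36 CPM at 6 weeks. With 65 Gy the levels were 15.7, 17.8 and 15.3 CPM at 2 weeks and 16.4 and 11.5 CPM at 6 weeks. With 75 Gy they were 19.8, 24.2 and 43.4 CPM at 2 weeks, the last in library 3134, and 11.7, 14.8 and 15.5 CPM at 6 weeks. Every irradiated library was thus above every control, and at 2 weeks the 3 libraries of 75 Gy were above the 3 of 65 Gy. The log2 fold change against controls was 3.17 ± 0.31 (SE, n = 3 and 3) for 75 Gy at 2 weeks, with an adjusted p of 1.07e-05 from edgeR's quasi-likelihood test. It was 2.33 for 65 Gy at 2 weeks (adjusted p = 0.000224) and 1.79 for each dose at 6 weeks (adjusted p = 0.000387 for 75 Gy and 0.00220 for 65 Gy). Without library 3134 the first of these was 2.76 and still passed.

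Gclc (gene 14629, chr9:77754535-77794489), the catalytic subunit of glutamate-cysteine ligase, which makes the rate-limiting step of glutathione synthesis, was high in every group. Its controls had 308, 265 and 282 CPM at 2 weeks and 223, 213 and 248 CPM at 6 weeks. At 2 weeks the irradiated libraries had 403, 361 and 439 CPM with 65 Gy and 333, 423 and 376 CPM with 75 Gy. At 6 weeks they had 368 and 354 CPM with 65 Gy and 333, 371 and 394 CPM with 75 Gy. No irradiated library overlapped the controls of its time, although the controls of 6 weeks were all under those of 2 weeks. Gclc rose by 1.32-fold with 75 Gy (log2 fold change 0.40 ± 0.11, adjusted p = 0.0142 in edgeR) and by 1.41-fold with 65 Gy (adjusted p = 0.00946) at 2 weeks. The rise was 1.61-fold (adjusted p = 0.000295) and 1.59-fold (adjusted p = 0.00242) at 6 weeks. The call at 75 Gy and 2 weeks was lost without the control library 3127 (adjusted p = 0.0661) or the 75 Gy library 3133 (adjusted p = 0.0571), and that at 65 Gy and 2 weeks without the 65 Gy library 3131 (adjusted p = 0.0505).

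Gclm (gene 14630, chr3:122245487-122267215), the modifier subunit of the same ligase, did not follow Gclc at 6 weeks. At 2 weeks the controls had 25.1, 31.4 and 32.8 CPM, the 65 Gy libraries 36.0, 34.9 and 35.5 CPM and the 75 Gy libraries 36.4, 41.4 and 40.8 CPM. At 6 weeks the controls had 34.2, 32.6 and 39.3 CPM, the 65 Gy libraries 41.7 and 37.1 CPM and the 75 Gy libraries 33.4, 36.9 and 41.3 CPM. The groups were separate at 2 weeks and overlapped at 6 weeks. Gclm rose with 75 Gy at 2 weeks by 1.33-fold (log2 fold change 0.41 ± 0.11, adjusted p = 0.0165 in edgeR), a call that was lost without library 3134 (adjusted p = 0.0521). It did not pass with 65 Gy at 2 weeks (0.25, adjusted p = 0.168), with 75 Gy at 6 weeks (0.07, 95% interval -0.17 to 0.31) or with 65 Gy at 6 weeks (0.15, 95% interval -0.11 to 0.42).

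Txnrd1, Srxn1 and Gpx2 reduce thiols and peroxides. Srxn1 (gene 76650, chr2:152105524-152111376), sulfiredoxin, restores peroxiredoxins that have been over-oxidised by peroxide. It had 33.1, 25.7 and 32.1 CPM in the controls of 2 weeks and 28.9, 27.1 and 28.1 CPM in those of 6 weeks. Irradiated libraries lay in a narrow range at 45.9 to 50.6 CPM with 65 Gy and 51.8 to 53.5 CPM with 75 Gy at 2 weeks, and at 49.6 and 51.2 CPM with 65 Gy and 50.8, 52.5 and 58.6 CPM with 75 Gy at 6 weeks. Library 3134, with 53.5 CPM, did not stand out here. Srxn1 rose by 1.74-fold (log2 fold change 0.80 ± 0.09, adjusted p = 5.00e-05 in edgeR) and 1.61-fold (adjusted p = 0.000293) with 75 Gy and 65 Gy at 2 weeks. It rose by 1.93-fold (0.95 ± 0.09, adjusted p = 8.71e-06) and 1.80-fold (adjusted p = 0.000107) at 6 weeks, and it had the smallest adjusted p of the 10 genes there at both doses.

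Txnrd1 (gene 50493, chr10:82833951-82897724), the cytosolic thioredoxin reductase, moved less. At 2 weeks it had 85.1, 95.2 and 104 CPM in controls, 126, 127 and 124 CPM with 65 Gy and 115, 135 and 142 CPM with 75 Gy. By 6 weeks Txnrd1 had 99.4, 95.6 and 98.6 CPM in controls, 134 and 118 CPM with 65 Gy and 109, 105 and 114 CPM with 75 Gy. All irradiated libraries were above the controls of their time, and at 6 weeks both libraries of the lower dose were above the 3 of the higher dose. Txnrd1 rose at 2 weeks by 1.38-fold with 75 Gy (log2 fold change 0.46 ± 0.09, adjusted p = 0.00239 in edgeR) and by 1.33-fold with 65 Gy (adjusted p = 0.0105). At 6 weeks it rose with 65 Gy by 1.28-fold (adjusted p = 0.0280) and did not pass with 75 Gy (0.16, 95% interval -0.04 to 0.35). When edgeR was fitted to only the libraries of the groups compared, Txnrd1 passed with 75 Gy at 6 weeks (0.17, adjusted p = 0.0459). The call at 65 Gy and 6 weeks was lost without any 1 of the control libraries 3135, 3136 and 3137 or the 65 Gy library 3138, with adjusted p between 0.0649 and 0.207.

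Gpx2 (gene 14776, chr12:76792335-76795554) is a glutathione peroxidase of epithelia. The controls had 24.0, 16.6 and 21.1 CPM at 2 weeks and 15.9, 16.6 and 20.5 CPM at 6 weeks. At 2 weeks the 65 Gy libraries had 16.2, 16.6 and 16.3 CPM, all just under the lowest control, and the 75 Gy libraries 29.3, 24.6 and, in library 3134, 14.6 CPM. At 6 weeks the 65 Gy libraries had 32.9 and 23.9 CPM and the 75 Gy libraries 25.7, 32.1 and 38.5 CPM, all above the controls. Gpx2 rose with 75 Gy at 6 weeks by 1.82-fold (log2 fold change 0.86 ± 0.22, adjusted p = 0.00771 in edgeR). With 65 Gy at 6 weeks the log2 fold change was 0.69 (adjusted p = 0.0725), which passed with DESeq2 (0.69, adjusted p = 0.0407). It was 0.15 with 75 Gy (95% interval -0.32 to 0.62) and -0.33 with 65 Gy (95% interval -0.80 to 0.15) at 2 weeks. Without the 75 Gy library 3132 the value for 75 Gy at 2 weeks was -0.08.

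Hmox1 (gene 15368, chr8:75093618-75100593) encodes haem oxygenase 1, which splits haem into biliverdin, iron and carbon monoxide. It lay between 28.1 and 35.6 CPM in all 6 control libraries, at 31.0, 28.1 and 35.6 CPM at 2 weeks and 29.2, 30.2 and 30.6 CPM at 6 weeks. At 2 weeks it was at 107, 94.1 and 99.9 CPM with 65 Gy and at 86.3, 119 and 217 CPM with 75 Gy, the last in library 3134. At 6 weeks it was at 71.5 and 72.1 CPM with 65 Gy and at 68.2, 60.6 and 81.1 CPM with 75 Gy. The irradiated libraries of 6 weeks were all under those of 2 weeks and all above every control. The log2 fold changes were 2.16 ± 0.24 with 75 Gy (adjusted p = 3.55e-05 in edgeR) and 1.67 ± 0.24 with 65 Gy (adjusted p = 0.000395) at 2 weeks. They were 1.22 ± 0.23 with 75 Gy (adjusted p = 0.00111) and 1.26 ± 0.25 with 65 Gy (adjusted p = 0.00490) at 6 weeks.

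Macrophage markers were read from 3 lists. The 8 monocyte and recruited macrophage markers summed to 313 to 377 CPM in controls and to 850 to 2362 CPM in irradiated libraries, and between 6 and 8 of them rose in each of the 4 comparisons. Their mean sum was 954 and 990 CPM with 65 Gy and 1495 and 1234 CPM with 75 Gy at 2 and 6 weeks. Of the 6 lipid-laden macrophage markers 5 rose in each of the 4 comparisons, with a median log2 fold change over the 6 of 2.92 to 4.45, while Cd36, a fatty acid receptor that capillaries also carry, fell with either dose at 2 weeks. Their sum overlapped at 2 weeks, with 1629 to 3130 CPM in controls and 2101 to 3260 CPM in irradiated libraries, and was separate at 6 weeks, with 1785 to 1858 CPM and 3254 to 4722 CPM. Of the 7 alveolar macrophage markers, 2 rose and 2 fell with 75 Gy and 2 rose and 3 fell with 65 Gy at 2 weeks, with a sum of 472 to 1172 CPM in controls and 616 to 1008 CPM in irradiated libraries. At 6 weeks 3 rose and 1 fell with 75 Gy and 4 rose with 65 Gy, and the sum was 442 to 594 CPM in controls and 1459 to 2136 CPM in irradiated libraries. The mean alveolar and lipid-laden sums were higher at 6 than at 2 weeks with both doses. The mean monocyte and recruited macrophage sum was higher at 6 weeks with 65 Gy and lower with 75 Gy. With 75 Gy Trem2 had 30.5, 40.9 and 75.0 CPM at 2 weeks and 52.9, 45.3 and 48.6 CPM at 6 weeks. Each of the 6 neutrophil markers fell at 2 weeks with either dose. Over all genes, 11.8% and 6.70% rose and 10.5% and 4.29% fell with 75 Gy and 65 Gy at 2 weeks. At 6 weeks 18.0% and 7.66% of all genes rose and 18.0% and 7.01% fell. No macrophage or neutrophil marker was at 0 in any library, and their part in the changes of the antioxidant genes was not tested. In bulk RNA more cells of a type and more RNA per cell cannot be told apart. Library 3134 was highest in Hmox1, Slc7a11 and the monocyte and recruited macrophage sum, but not in the alveolar sum, at 1008 CPM against 2136 CPM in library 3140, or in the lipid-laden sum, at 3260 CPM against 4722 CPM in library 3143. Without library 3134 Hmox1 and Slc7a11 were DEGs in all 4 comparisons.

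**Figure D3:**
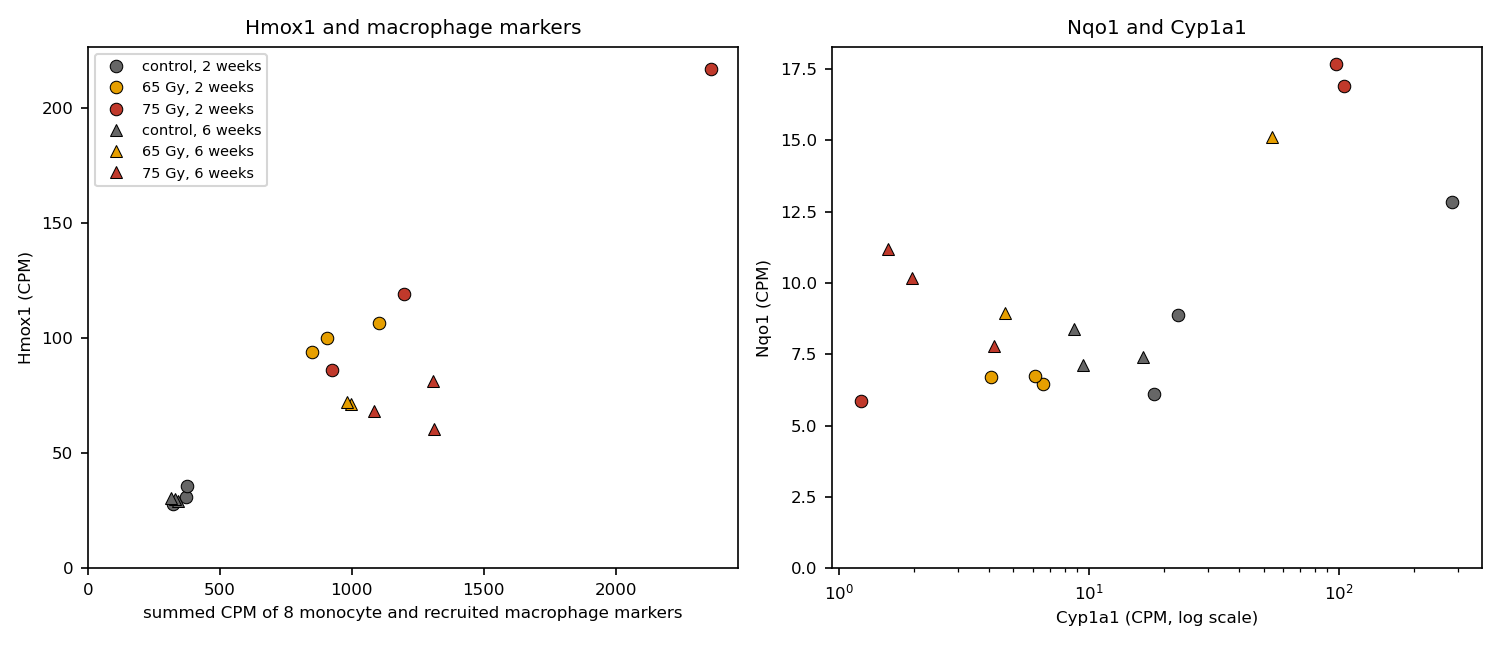
Each point is a library, coloured by dose, with circles for 2 weeks and triangles for 6 weeks. The left panel sets Hmox1 (CPM) against the summed CPM of 8 monocyte and recruited macrophage markers, where controls sit at 313 to 377 CPM and library 3134 at 2362 CPM; the right panel sets Nqo1 (CPM) against Cyp1a1 (CPM, log axis), where the 4 libraries highest in Nqo1 are the 4 highest in Cyp1a1.

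Nqo1 (gene 18104, chr8:107388225-107403205), a quinone reductase and a classic target of NRF2, passed in none of the 4 comparisons. At 2 weeks it had 8.87, 6.12 and 12.8 CPM in controls, 6.46, 6.76 and 6.71 CPM with 65 Gy and 17.7, 16.9 and 5.87 CPM with 75 Gy. At 6 weeks it had 7.12, 8.38 and 7.40 CPM in controls, 15.1 and 8.96 CPM with 65 Gy and 7.79, 10.2 and 11.2 CPM with 75 Gy. The spread within groups was wide, with a coefficient of variation of 49.0% with 75 Gy at 2 weeks and 36.4% in the controls of that time. The log2 fold changes were 0.54 ± 0.34 and -0.48 ± 0.34 with 75 Gy and 65 Gy at 2 weeks and 0.35 ± 0.34 and 0.66 ± 0.37 at 6 weeks, with adjusted p between 0.258 and 0.444 in edgeR. Library 3134, the highest of all in Hmox1, was the lowest of all in Nqo1, and without it Nqo1 rose with 75 Gy at 2 weeks (0.90, adjusted p = 0.0271).

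Nqo1 is also a known target of the aryl hydrocarbon receptor, whose main target is Cyp1a1, a gene looked at after the values of Nqo1 were seen. Cyp1a1 had 22.7, 18.2 and 284 CPM in the controls of 2 weeks, 6.57, 6.09 and 4.08 CPM with 65 Gy and 97.6, 104 and 1.23 CPM with 75 Gy at 2 weeks. By 6 weeks Cyp1a1 had 9.49, 8.74 and 16.5 CPM in controls, 53.9 and 4.61 CPM with 65 Gy and 4.18, 1.96 and 1.57 CPM with 75 Gy. The 4 libraries highest in Nqo1 were thus the 4 highest in Cyp1a1, 1 control among them. Cyp1b1, another target of this receptor, did not keep this order. It had 14.0 CPM in library 3134, the lowest in Nqo1, and 13.1 CPM in library 3132, the highest in Nqo1. In libraries 3133, 3128 and 3138, also high in Nqo1, Cyp1b1 had 19.6, 15.4 and 16.1 CPM. In the 75 Gy libraries of 6 weeks Nqo1 was at 7.79 to 11.2 CPM while Cyp1a1 was at most 4.18 CPM. The part of Cyp1a1 or of its regulator in the spread of Nqo1 was not tested. The airway secretory markers, of cells in which Gpx2 and Nqo1 are also found, summed to 16510 to 21400 CPM in controls and to 6512 to 14351 CPM in irradiated libraries, with 3134 the lowest. Most of these 6 markers did not pass singly. With 75 Gy 2 of the 6 fell at each time, where 10.5% and 18.0% of all genes fell at 2 and 6 weeks. With 65 Gy 1 fell at 2 weeks and 0 at 6 weeks, where 4.29% and 7.01% of all genes fell. The part of these markers was not tested either.

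Of the superoxide dismutases, Sod2 (gene 20656, chr17:13007839-13018119) encodes the mitochondrial manganese enzyme. It had 81.4, 78.9 and 77.8 CPM in the controls of 2 weeks, 115, 98.3 and 102 CPM with 65 Gy and 116, 102 and 125 CPM with 75 Gy. By 6 weeks Sod2 had 74.2, 71.8 and 78.5 CPM in controls, 88.0 and 84.4 CPM with 65 Gy and 85.3, 87.0 and 93.9 CPM with 75 Gy. All irradiated libraries were above all controls, and those of 6 weeks were under those of 2 weeks. Sod2 rose by 1.44-fold with 75 Gy (log2 fold change 0.53 ± 0.09, adjusted p = 0.000695 in edgeR) and 1.33-fold with 65 Gy (adjusted p = 0.00754) at 2 weeks. At 6 weeks it rose by 1.19-fold with 75 Gy (adjusted p = 0.0359) and did not pass with 65 Gy (0.20, adjusted p = 0.168). With edgeR fitted to only the libraries of the groups compared, Sod2 passed with 65 Gy at 6 weeks (0.23, adjusted p = 0.0283). The call at 75 Gy and 6 weeks was lost without any 1 of the libraries 3135, 3136, 3138, 3140, 3142 and 3143, with adjusted p between 0.0547 and 0.120.

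Sod3 (gene 20657, chr5:52363804-52369738), the secreted copper and zinc enzyme bound to the matrix of vessels and airways, was the only one of the 10 with a negative estimate in every comparison with controls. It had 358, 344 and 422 CPM in the controls of 2 weeks, 369, 246 and 283 CPM with 65 Gy and 291, 325 and 220 CPM with 75 Gy. By 6 weeks Sod3 had 288, 321 and 302 CPM in controls, 278 and 270 CPM with 65 Gy and 291, 277 and 285 CPM with 75 Gy. The 75 Gy libraries of 2 weeks were all under the controls, and the log2 fold change of -0.43 ± 0.15 just missed the threshold (adjusted p = 0.0502 in edgeR). DESeq2 gave -0.42 with an adjusted p of 0.0295. The estimate was -0.32 with 65 Gy at 2 weeks (adjusted p = 0.184), -0.09 with 75 Gy and -0.15 with 65 Gy at 6 weeks. Of 9 smooth muscle and pericyte markers, 6 fell with 75 Gy at 2 weeks, where 10.5% of all genes fell. The sum of the 9 went from 947 to 997 CPM in controls to 550 to 749 CPM, and their part in the level of Sod3 was not tested.

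Set per length, the order of the genes changed little at the bottom and more at the top. Levels per kilobase of the longest matched transcript were highest for Sod3 in controls of 2 weeks, at 100.2 ± 11.2 CPM per kb (SD, n = 3). Gclc followed at 83.3, Txnrd1 at 26.1, Hmox1 at 20.1 and Gpx2 at 19.2 CPM per kb, where the libraries of the last pair overlapped, and Slc7a11 was lowest at 0.350 CPM per kb. With 75 Gy at 2 weeks Gclc was highest at 110 CPM per kb, Hmox1 was next at 89.7 and Sod3 was at 74.5, and the libraries of each overlapped those of its neighbour. Slc7a11 stayed last with 3.16 CPM per kb.

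The doses and times were then compared with each other. Between 75 Gy and 65 Gy 0 of the 10 genes passed at 2 weeks and 0 at 6 weeks, as did 0% of all genes tested with edgeR at either time, of which 7.12% and 6.49% had an unadjusted p under 0.05 and 15 and 17 genes passed with DESeq2. By an unadjusted p under 0.05, 4 of the 10 (Slc7a11, Gpx2, Nqo1 and Hmox1) differed at 2 weeks and 0 at 6 weeks, and DESeq2 passed 0 at either time. At 2 weeks the difference of 75 Gy over 65 Gy was 0.84 for Slc7a11 (95% interval 0.24 to 1.43), 1.02 for Nqo1 (0.30 to 1.75) and 0.49 for Hmox1 (0.00 to 0.98), each on the log2 scale with an adjusted p of 0.693. Without library 3134 this difference was 0.43 for Slc7a11, 1.38 for Nqo1 and 0.034 for Hmox1, so that the estimate for Hmox1 rested on that library. At 6 weeks the same difference was 0.00 for Slc7a11 (-0.66 to 0.67) and -0.04 for Hmox1 (-0.58 to 0.51). The libraries of both doses did not overlap for Gclm, Slc7a11 and Srxn1 at 2 weeks, all higher with 75 Gy, where 10.9% of all genes did not overlap, and for Txnrd1 at 6 weeks, lower with 75 Gy, where 30.9% did not.

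Against the controls of the same time, 7 of the 10 genes lay wholly above and 1 (Sod3) wholly below with 75 Gy at 2 weeks, where the groups of 30.2% of all genes did not overlap. With 65 Gy at 2 weeks 7 lay above and 1 (Gpx2) below, against 29.4% of all genes. At 6 weeks 7 lay above with 75 Gy, against 57.1%, and 8 above and 1 (Sod3) below with 65 Gy, against 56.3%. Between the times, the 75 Gy libraries of 6 weeks lay wholly below those of 2 weeks for 4 genes, Slc7a11, Txnrd1, Hmox1 and Sod2, where 27.9% of all genes did not overlap. With 65 Gy the libraries of 6 weeks were wholly below for Hmox1 and Sod2 and wholly above for Gclm, Gpx2 and Nqo1, against 38.6% of all genes. Control libraries of 6 weeks were wholly below for Gclc and Sod3, against 23.6%.

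Controls of 6 weeks against controls of 2 weeks gave 0 of the 10 genes with edgeR, where 1.63% of all genes passed, and 0 with DESeq2. At an unadjusted p under 0.05 there were 2, where 15.5% of all genes were, Gclc with -0.33 (adjusted p = 0.161) and Gclm with 0.25 (adjusted p = 0.303), which was 0.14 without the control library 3126. Whether the effect of a dose differed between the times was tested as an interaction. For 75 Gy 0 of the 10 passed with edgeR, where 0.299% of all genes passed, while 5 had an unadjusted p under 0.05, against 16.1% of all genes. Slc7a11 had the largest of these, at -1.38 (95% interval -2.25 to -0.51, adjusted p = 0.159), and it passed with DESeq2 (-1.39, adjusted p = 0.0304), as did 3.21% of all genes. Hmox1 was at -0.93 (-1.63 to -0.24) and Gpx2 at 0.71 (0.04 to 1.38), so that their estimates pointed in opposite directions. Without library 3134 these were -0.98 for Slc7a11, -0.48 for Hmox1 and 0.47 for Gpx2. For 65 Gy 0 passed, where 0.0136% of all genes passed, and 2 had an unadjusted p under 0.05, against 8.65% of all genes, Gpx2 with 1.01 (0.31 to 1.72) and Nqo1 with 1.14 (0.07 to 2.21), which was 0.73 without the 65 Gy library 3138.

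The genes whose levels over the 17 libraries were most like those of each member were named by Pearson's r of log2 CPM, as a description over libraries that share groups and depth. Hmox1 was most like Gnpda1 (r = 0.990), Atp6v0c (0.984) and Rab32 (0.983). Atp6v0c is a subunit of the lysosomal proton pump, and Gnpda1 had 14.0 to 16.1 CPM in controls and 24.6 to 58.5 CPM in irradiated libraries, the highest in library 3134. Srxn1 was most like Ccl6 (0.981), a chemokine of myeloid cells, Clca3a1 (0.981) and Trem2 (0.980), a lipid receptor of macrophages. Trem2 had at most 2.78 CPM in controls and 30.5 to 75.0 CPM in irradiated libraries. For Slc7a11 they were Ptpn7 (0.968), Galns (0.967) and Lrp12 (0.967), for Txnrd1 Lrp8 (0.962) and Galc (0.942), and for Gclc Steap2 (0.948), Klhdc8a (0.938) and Osmr (0.938). Galns and Galc encode lysosomal hydrolases. By Spearman's rho in place of Pearson's r, 0 of the 3 genes most like each of Hmox1, Srxn1, Slc7a11, Txnrd1 and Gclc stayed the same.

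Gpx2 and Nqo1 had other neighbours. Gpx2 was most like Cbr1 (0.898), Mgst1 (0.887) and Cbr3 (0.881), and Nqo1 like Ces1g (0.866), Slc48a1 (0.821) and Ugt1a6a (0.789). Cbr1, Cbr3 and Slc48a1 also stand in the list of other NRF2 targets, while the carbonyl reductases, the microsomal glutathione transferase Mgst1, the carboxylesterase Ces1g and the glucuronosyltransferase Ugt1a6a all handle foreign compounds. Ces1g had 19.4 CPM in control library 3128, which was also the highest control in Nqo1, and 2.44 CPM in library 3134. Sod2 was most like Uck2 (0.967), Plk4 (0.965) and Cdca2 (0.965), Plk4 being a kinase of centriole duplication. Gclm was most like Xylb (0.876), Lpcat4 (0.864) and Morn4 (0.857), and Sod3 like Fbln1 (0.896), Kctd15 (0.878) and Lamb1 (0.867), 2 of which encode matrix proteins. Between members r was 0.20 for Gclc and Nqo1 and 0.84 for Gclc and Hmox1.

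The other genes of the pathway were read from lists. Of 12 regulators of NRF2, 1 rose and 2 fell with 75 Gy at 2 weeks, where 11.8% of all genes rose and 10.5% fell. With 75 Gy at 6 weeks 1 rose and 6 fell, against 18.0% and 18.0% of all genes. With 65 Gy 0 passed at 2 weeks with edgeR, against 2 at an unadjusted p under 0.05 and 1 with DESeq2 (25.4% and 15.8% of all genes). At 6 weeks 1 rose and 2 fell with 65 Gy, against 7.66% and 7.01% of all genes. The gene that rose was Nfe2l2, with a log2 fold change of 0.34 at 2 weeks (adjusted p = 0.0115 in edgeR) and 0.62 at 6 weeks (adjusted p = 0.000123) with 75 Gy, and 0.45 with 65 Gy at 6 weeks (adjusted p = 0.00703). Keap1 lay between -0.10 and 0.12 and did not pass. Bach1, the competing repressor, fell at 6 weeks with 75 Gy (-0.43) and 65 Gy (-0.40) and was at 0.02 and -0.02 at 2 weeks. Bach2, its relative in lymphocytes, fell by 1.24 on the log2 scale with 75 Gy at 6 weeks, and Nfe2l1 fell by 0.42.

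Of 20 other NRF2 targets, 8 rose and 1 fell with 75 Gy at 2 weeks, where 11.8% of all genes rose and 10.5% fell. With 65 Gy at 2 weeks 6 rose and 1 fell, against 6.70% and 4.29% of all genes. At 6 weeks 8 and 7 rose with 75 Gy and 65 Gy, against 18.0% and 7.66%. Akr1b8, an aldo-keto reductase, was the only DEG among the 20, with 1.25 with 75 Gy at 2 weeks and 1.66 and 1.48 with 75 Gy and 65 Gy at 6 weeks, and just at the limit with 65 Gy at 2 weeks. Me1 and Pgd, which make NADPH, rose in all 4 comparisons, by 0.39 to 0.67 and by 0.36 to 0.57. Taldo1, of the pentose phosphate pathway, rose in 3 of them. Other genes of the list had lower means at 2 weeks, among them the glutathione transferases Gsta3 and Gstm1. Gsta3 had 81.4 CPM with 65 Gy and 94.5 CPM with 75 Gy, against 152 CPM in controls. Gstm1 had 211 and 227 CPM, against 372 CPM. The 75 Gy libraries spread widely, from 32.9 to 142 CPM for Gsta3.

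Of 13 genes of haem and iron handling, 8 rose and 1 fell with 75 Gy at each time. Over all genes 11.8% rose and 10.5% fell with 75 Gy at 2 weeks, and 18.0% and 18.0% at 6 weeks. With 65 Gy 3 rose at 2 weeks, against 6.70% of all genes. Then 6 rose and 1 fell at 6 weeks, against 7.66% and 7.01%. The genes that rose included the ferritin chains that store the iron that haem oxygenase frees. Ftl1 was a DEG in all 4 comparisons (1.39 and 1.06 at 2 weeks, 1.20 and 1.21 at 6 weeks, for 75 Gy and 65 Gy). Fth1 rose by 0.71 to 1.10, Blvrb, a biliverdin reductase, by 0.50 to 1.06, and Trf, transferrin, by 0.48 and 0.93 with 75 Gy. The ferritin genes have near-identical pseudogenes, and their values are uncertain to the extent that reads were shared.

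Of 17 genes of the glutathione system, with 75 Gy 4 went up and 1 went down at 2 weeks, against 11.8% and 10.5% of all genes. At 6 weeks 5 went up and 2 down with 75 Gy, against 18.0% and 18.0%. With 65 Gy 2 rose at 6 weeks, against 7.66%. With 65 Gy at 2 weeks 0 changed with edgeR, where 6 had an unadjusted p under 0.05 and DESeq2 passed 3, against 25.4% and 15.8% of all genes. Without the control library 3126, 2 rose and 1 fell there. Glrx, a glutaredoxin, rose with 75 Gy by 0.88 and 1.27, Gpx1 by 0.61 and 0.77 and Chac2 by 0.71 and 0.93 at 2 and 6 weeks, and Gpx3, the plasma peroxidase, fell by 0.50 and 0.39. Of 13 thioredoxin and peroxiredoxin genes, with 75 Gy 5 went up and 4 down at 2 weeks, against 11.8% and 10.5% of all genes. At 6 weeks 7 went up and 3 down with 75 Gy, against 18.0% and 18.0%. Prdx5 rose in all 4 comparisons by 0.43 to 0.93, and Prdx2 rose with 75 Gy at 6 weeks by 0.72. Txn1, thioredoxin, rose with 75 Gy by 0.50 and 0.58 at 2 and 6 weeks. Sesn2, a sestrin also induced through p53, rose by 1.09 with 75 Gy and by 1.24 with 65 Gy at 2 weeks and by 0.60 with 75 Gy at 6 weeks.

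Of 5 other genes of superoxide and peroxide removal, Atox1, a copper chaperone, rose in all 4 comparisons by 0.46 to 1.10. Sod1, the cytosolic dismutase, lay between -0.28 and -0.10 and did not pass. Atp7a, a copper pump that loads Sod3, fell by 0.42 with 75 Gy at 6 weeks.

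**Figure D4:**
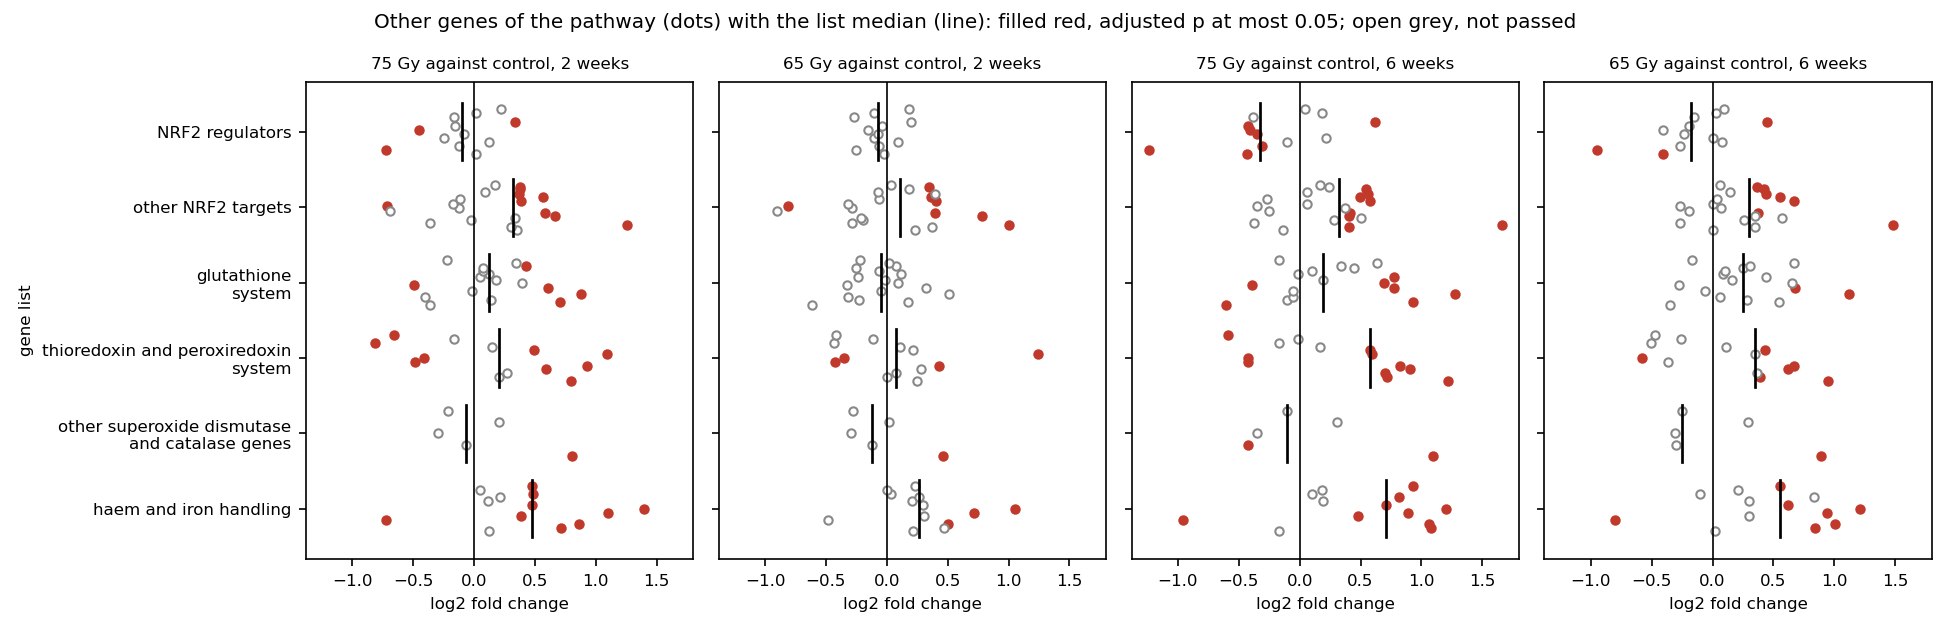
Log2 fold change (x axis) of each gene (dots) of 6 lists (y axis) in irradiated against control lungs, 1 panel per comparison, with a line at the list's median. Filled red dots passed the test and open grey dots did not; haem and iron handling has the highest median in each panel, from 0.262 with 65 Gy at 2 weeks to 0.711 with 75 Gy at 6 weeks.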

How the data were processed

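The series holds RNA sequencing of mouse lung, with poly(A) libraries from a strand-specific kit. Per the study's methods, the authors used Trimmomatic to trim, HISAT2 to align to GRCm38.p6 and StringTie to quantify, and the values they deposited are raw counts of reads per gene, whole numbers with no normalization. How reads shared between gene copies were counted is not given in the sources used here.

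One edgeR 4.0.16 model (R 4.3.3) with a coefficient for each of the 6 groups held all 17 libraries. filterByExpr (minimum count 10, minimum total 15) kept 22052 of 45777 genes, libraries were scaled with TMM factors, and 9 contrasts were tested with the quasi-likelihood F test and Benjamini-Hochberg adjustment over all genes kept. Intervals of 95% come from the same fit. Likeness between genes was Pearson's r of log2 CPM with a prior count of 2, over genes with a mean of at least 1. Levels per kilobase used the longest GENCODE transcript that matched a RefSeq accession in the table. Promoter windows came from RefSeq starts on GRCm38.p6. Levels and windows were handled in Python 3.11.15 with pandas 2.3.3.

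The members and lists were chosen with earlier results of these data known. Beside the members, the genes named are up to 4 per pathway list with the smallest adjusted p for 75 Gy at either time, Nfe2l2, Keap1, Bach1 and Sod1, the 3 genes most like each member and the first 2 markers of a cell type. Of the genes most like a member, 1 is not reported here. Cyp1a1, Cyp1b1, Cd36, Gsta3, Gstm1 and the remaining values given for single libraries of like genes were chosen after their values were seen.

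Alternatives were RLE and upper-quartile factors, a filter of only 1 count in all, a filter of 10 counts or more per library, DESeq2 1.42.0, only the libraries of the groups compared, and leaving out each library. For likeness they were Spearman's rho and a prior count of 0.5. The test was run on simulated data first. Sequencing depth set no limit on these genes, whose lowest count was 107, so the number of libraries sets the precision.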

Additional observations from a re-analysis of the deposited data

How the results depend on the processing

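Slc7a11 and Hmox1 were DEGs in all 4 comparisons with controls under each of the 6 alternatives and without any 1 of the 17 libraries. Of 2070 values of the 10 genes under these settings, 2012 kept their direction and their side of the threshold, 18 lost their call, 12 gained one and 28 changed sign, none of the last with an adjusted p of at most 0.05. At 75 Gy and 2 weeks the number of the 10 that rose was 4 when only the libraries of the groups compared were fitted, with Gclc, Gclm and Txnrd1 lost. Among all genes that fit passed 1150 there, against 4922 in the main fit, and 2123 against 2422 with 65 Gy at 2 weeks. At 6 weeks it passed more, 9883 against 7935 with 75 Gy and 6411 against 3234 with 65 Gy. Fewer samples gave its estimate of the spread, and the reason for these shifts was not tested. The number of the 10 that fell at 75 Gy and 2 weeks was 1 with DESeq2 (Sod3) and between 0 and 1 with 1 library left out, being 1 without 3129, 3130 or 3133. The number of genes whose 75 Gy effect differed between the times was 1 with DESeq2 (Slc7a11), and the cause was not tested. Without 1 library the number that rose was 6 to 7 with 75 Gy and 5 to 6 with 65 Gy at 2 weeks, and 5 to 6 with 75 Gy and 4 to 6 with 65 Gy at 6 weeks. Leaving out 1 of the 2 libraries of 65 Gy at 6 weeks leaves a group of 1, whose spread was taken from the others.

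Values near 0 changed sign. Slc7a11 in 75 Gy against 65 Gy at 6 weeks was -0.01067 with RLE factors, -0.01088 without the filter, -0.0007201 with at least 10 counts in every library and -0.01045 with DESeq2. With 1 library left out, this difference of the doses at 6 weeks ranged from -0.2492 to 0.2676 for Slc7a11, -0.6511 to 0.1038 for Nqo1, -0.03303 to 0.06645 for Gclc, -0.05246 to 0.4074 for Gpx2, -0.003209 to 0.05943 for Sod2 and -0.1538 to 0.04988 for Hmox1. At 2 weeks it ranged from -0.2302 to 0.07456 for Sod3 and from -0.01297 to 0.136 for Txnrd1, and Gpx2 in 75 Gy against control from -0.07817 to 0.3907. Between controls of 6 and 2 weeks the range was -0.02463 to 0.1193 for Txnrd1, -0.5086 to 0.02544 for Nqo1 and -0.1514 to 0.02235 for Hmox1. The change of the effect with time ranged from -0.5477 to 0.06763 for Nqo1 with 75 Gy, and with 65 Gy from -0.177 to 0.02084 for Gclm and from -0.1356 to 0.05125 for Txnrd1.

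The genes most like a member were the same 3 for all 10 with a prior count of 0.5, while Spearman's rho shared between 0 and 2 of the 3. No paired analysis was possible because the library numbers in the labels are all different.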
